A study of Mus musculus with 14 samples.

Results

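Thymic lymphomas with a high interferon signature were compared with thymic lymphomas with a low one. The signature was a score, the mean log2 value of 5 interferon-induced genes, Mx1, Irf7, Oasl2, Usp18 and Irf9, taken for each of 14 tumours. The groups were chosen by these values: the 5 tumours of highest score formed the high-score group and the 5 of lowest score the low-score group, so that 10 of the 14 tumours entered the comparison and 4 lay between the groups. The groups were therefore made from measured values, and the score and its genes are described without a test. All other genes, 10249 in number, were compared between the groups.

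Every mouse was homozygous for p53 R270H (p53R270H/R270H), a missense mutation in the DNA-binding domain of the tumour suppressor, and of mixed C57BL/6-129/SvEvTac strain. The mice were aged until respiratory distress set in, and the labels give no age at death, sex or batch. They differed in Hif1a (HIF1a in the labels), the gene of the oxygen-regulated subunit of HIF-1, and fell into 5 Hif1a+/+, 5 Hif1a+/- and 4 Hif1aKI/+ tumours, the last with an allele labelled KI whose content is not described. Each tumour is labelled as a biological replicate, and its total RNA was measured on 1 expression array. The high-score group held 4 Hif1a+/- tumours, 1 Hif1aKI/+ tumour and 0 Hif1a+/+ tumours. The low-score group held 3 Hif1a+/+ tumours, 1 Hif1a+/- tumour and 1 Hif1aKI/+ tumour, and the tumours between them were 2 Hif1a+/+ and 2 Hif1aKI/+. Score and genotype thus overlap in these animals, and for the Hif1a+/+ genotype they cannot be told apart, since it has no high-score tumour.

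Type I interferons are cytokines released when a cell senses foreign or misplaced nucleic acid. They bind the receptor made of IFNAR1 and IFNAR2, whose kinases JAK1 and TYK2 phosphorylate STAT2. It joins IRF9, and their complex binds the interferon-stimulated response element in the promoters of antiviral genes, and one of the genes so induced, Irf7, encodes a factor that raises interferon production further. Interferon-gamma signals through another receptor and acts mainly on gamma-activated sites. In the thymus, epithelial cells and dendritic cells are known sources of interferon under resting conditions.

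Of the score genes, Mx1 encodes an antiviral GTPase, Irf7 and Irf9 encode transcription factors of the pathway, Oasl2 encodes a protein related to the oligoadenylate synthetases, and Usp18 encodes the protease that removes ISG15 from proteins and dampens receptor signalling. Each of these genes had 1 probe set that named it alone. The score was 8.89 in Hif1a+/- tumour 2, 8.50 in Hif1aKI/+ tumour 4, 7.96 in Hif1a+/- tumour 3, 7.86 in Hif1a+/- tumour 1 and 7.65 in Hif1a+/- tumour 4. It was 6.81 in Hif1a+/+ tumour 1, 6.50 in Hif1aKI/+ tumour 5, 5.87 in Hif1a+/- tumour 5, 5.41 in Hif1a+/+ tumour 3 and 4.75 in Hif1a+/+ tumour 4. The means were 8.17 ± 0.51 (SD, n = 5) and 5.87 ± 0.83 (SD, n = 5). The tumours just outside were close to those just inside: Hif1a+/+ tumour 5 had 7.46 against 7.65 for the last high-score tumour, and Hif1aKI/+ tumour 3 had 7.10 against 6.81 for the first low-score one.

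**Figure D1:**
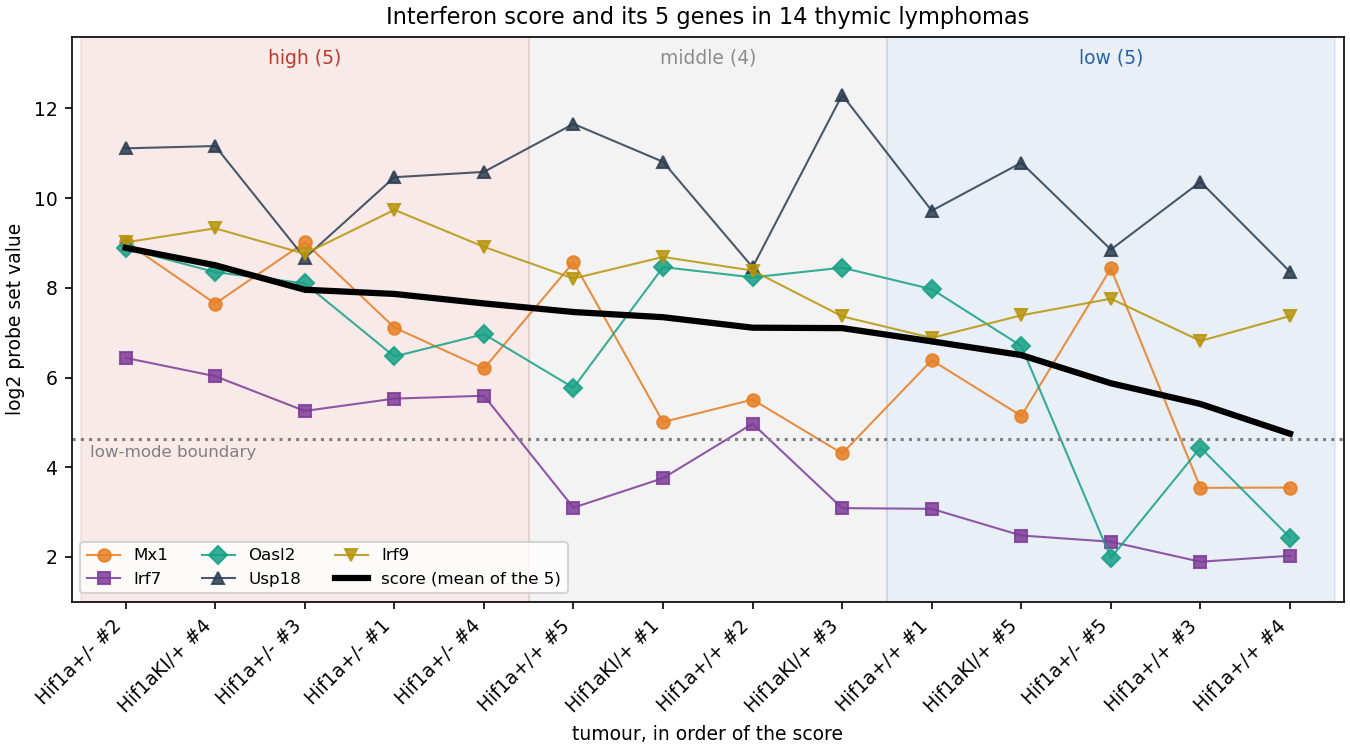
Log2 value of each of the 5 score genes and of their mean, the score, in 14 thymic lymphomas, 1 point per tumour, ordered by the score; shading marks the 5 high-score, 4 middle and 5 low-score tumours and the dotted line the low-mode boundary of 4.63. Irf7 and Irf9 separate the shaded ends, while Usp18 and Mx1 cross between them.

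The 5 genes did not move in step. Irf7 lay between 5.25 and 6.44 in the high-score tumours and between 1.89 and 3.07 in the low-score ones, and Irf9 between 8.76 and 9.74 and between 6.82 and 7.76. For these genes the groups did not overlap. They overlapped for Mx1, which reached 8.43 in the low-score Hif1a+/- tumour 5 but was 6.20 in the high-score Hif1a+/- tumour 4. Oasl2 was 7.97 in the low-score Hif1a+/+ tumour 1, above 6.47 in the high-score Hif1a+/- tumour 1. Usp18 differed least, with means of 10.40 and 9.62, and was highest at 12.30 in a tumour of neither group, Hif1aKI/+ tumour 3. The low-score values of Irf7 lie below 4.63, the boundary of the low mode that probe sets without clear signal form on these arrays. Below it the size of a difference is uncertain.

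Leaving Irf9 out of the score kept all 10 tumours in their groups. Leaving out Irf7 or Oasl2 kept 4 high-score and 4 low-score tumours each, leaving out Mx1 kept 4 and 5, and leaving out Usp18 kept 5 and 4. The tumours that left a group in 1 or more of these scores were Hif1a+/- tumours 3 and 4 at the high end and Hif1a+/+ tumour 1 and Hif1a+/- tumour 5 at the low end. With median-centred arrays, or with the 5 genes scaled to equal spread (an alternative added after the data were seen), all 10 tumours kept their groups.

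Overall signal was alike in both groups. The array medians ran from 7.96 to 8.03 in the high-score and from 7.93 to 8.02 in the low-score tumours, and correlations between arrays ran from 0.942 to 0.976. Of the T cell genes that define the tumour type, Cd3d lay between 13.34 and 14.33 in the 10 tumours. The mean of 12 pan-T cell genes lay between 11.46 and 12.15 in the high-score group and between 11.46 and 12.13 in the low-score group. Single genes could be low: Cd5 was 4.37 in Hif1a+/- tumour 3, below the low-mode boundary, against 7.57 to 9.90 in the other 9 tumours. Cd2 was 7.92 in Hif1aKI/+ tumour 4 and 9.34 in Hif1a+/- tumour 3, against 10.90 to 12.02 in the others. Both genes were named after their values were seen. One low-score library stood apart. In Hif1a+/- tumour 5 the mean of 24 cell cycle genes was 10.98, against 11.74 to 12.04 in the other 9 tumours of the comparison, and differences and list medians that turned direction without it are given both ways. Markers of other cell types are given further on with the groups of genes they belong to. In a piece of tissue, fewer cells of a type and less RNA per cell cannot be told apart.

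The fit across all genes asked which genes outside the score separate the groups. None passed an adjusted p of 0.05 in limma, whose linear model compares group means with moderated variances and adjusts over all genes by the Benjamini-Hochberg method (0% called in each direction). At an unadjusted p under 0.05 there were 793 genes, 7.74% of those tested, of which 379 were higher in the high-score tumours (3.7%) and 414 lower (4.04%). In 69 genes every high-score tumour lay above every low-score tumour (0.673%), and in 71 every one lay below (0.693%), 140 genes in all (1.37%). A log2 difference of at least 1 was found in 469 genes in the higher direction (4.58%) and in 346 in the lower (3.38%), and 37 (0.361%) and 32 (0.312%) of these had groups that did not overlap. The median difference over all genes was -0.003, and 44.8% of the genes were higher by any amount. In simulated data of the same 5 against 5 design, 40.4% of altered genes were found at log2 differences of 1 and 64.0% at 2. False calls averaged 7 per run of 10249 genes. The altered genes were drawn from all genes, those of the low mode with little spread included, and noise was independent between genes. The shares therefore do not give the power for genes of clear signal.

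The gene nearest to the threshold was Slfn2, a Schlafen family gene that interferon induces and that keeps T cells quiescent. Its log2 value was 8.81 in Hif1a+/- tumour 2, 9.38 in Hif1aKI/+ tumour 4, 8.68 in Hif1a+/- tumour 3, 8.91 in Hif1a+/- tumour 1 and 9.06 in Hif1a+/- tumour 4. In the low-score group it was 6.29 in Hif1a+/+ tumour 1, 7.24 in Hif1aKI/+ tumour 5 and 5.57, 5.57 and 5.87 in Hif1a+/- tumour 5, Hif1a+/+ tumour 3 and Hif1a+/+ tumour 4. The groups did not overlap, and the difference of 2.86 (SE 0.32), 7.26-fold, had a limma adjusted p of 0.125. The tumours of the middle group lay between 7.46 and 8.94, nearer to the high-score tumours. The Hif1a+/- and Hif1aKI/+ genotypes held 1 low-score tumour each and Hif1a+/+ no high-score tumour, so a separation within genotypes cannot be shown. Hif1a+/- tumour 5 was the lowest of its genotype, where the other 4 tumours began at 8.68, and Hif1aKI/+ tumour 5 lay below Hif1aKI/+ tumour 4.

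The call on Slfn2 depended on the setting. It passed when the 4 middle tumours entered the fit as a group of their own (2.86, adjusted p = 0.0352), when genes of low level were filtered out (adjusted p = 0.0299) and without Hif1aKI/+ tumour 5 (3.14, adjusted p = 0.00351). Its adjusted p ran from 0.00351 to 0.281 over the 10 fits that left out 1 tumour and from 0.0299 to 0.318 over the other settings. With genotype as an added term the difference was 2.85 (adjusted p = 0.0935). In that fit the Hif1a+/+ tumours, all in the low-score group, carry no information on the difference, which rests on 5 Hif1a+/- and 2 Hif1aKI/+ tumours.

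Next in rank among higher genes that differed by at least 1 stood Oip5os1, a long non-coding RNA, at 1.0 (limma adjusted p = 0.343), then Pglyrp1, which encodes a peptidoglycan recognition protein, at 4.52, Mllt3, which encodes a subunit of transcription elongation complexes, at 1.64, and Oas1a, which encodes an oligoadenylate synthetase, at 4.16, each with an adjusted p of 0.461. Pglyrp1 lay between 4.76 and 9.17 in the high-score tumours and between 2.6 and 3.91 in the low-score ones, the latter all below the low-mode boundary. It passed without Hif1a+/- tumour 1 (5.24, adjusted p = 0.0307), the high-score tumour with its lowest value. Among lower genes stood Evpl, which encodes the cornified envelope protein envoplakin, at -2.30 (limma adjusted p = 0.417), Opa1, which encodes the mitochondrial inner membrane fusion GTPase, at -1.08 and Fbln5, which encodes an elastic fibre protein, at -1.63, both at 0.461. They were followed by Tmem191c at -2.88 (0.461) and Phykpl, which encodes a phosphohydroxylysine lyase, at -1.04 (0.471). In all 10 of these genes, Slfn2 included, the groups did not overlap. Evpl was below the boundary in every high-score tumour, between 2.10 and 2.85, and between 3.97 and 5.95 in the low-score ones, and it passed with the middle tumours as a group (adjusted p = 0.0355).

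The genes that interferon induces directly were the main set of interest outside the score. They belong to the programme that the score measures, so their direction is no independent evidence of it. Of 44 measured antiviral effector genes 38 were higher and 6 lower in high-score tumours, 13 of them higher and 0 lower with p under 0.05 before adjustment, and the median difference was 0.54 against -0.003 over all genes. In 7 of them every high-score tumour lay above every low-score tumour. Of all genes 0.673% lay apart in this direction, and 3.7% were higher with p under 0.05 before adjustment. The mean of the 44 genes was 7.42 to 8.43 in the high-score tumours and 6.73 to 7.52 in the low-score ones, with Hif1a+/- tumour 3 the lowest of the first and Hif1a+/+ tumour 1 the highest of the second, so that these ranges overlapped slightly.

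Oas1a makes the short oligoadenylates that switch on RNase L when double-stranded RNA is present. Its value was 8.97, 9.49, 8.02, 9.52 and 8.26 in the high-score tumours, in order of the score, and 6.92, 5.94, 3.26, 4.45 and 2.90 in the low-score ones. The 4 middle tumours lay between 7.08 and 8.11, so that the order of the groups held for Oas1a with a single overlap between neighbours, and 3 of the low-score values were below the low-mode boundary. The difference was 4.16 (SE 0.80, limma adjusted p = 0.461), which the level of the lowest tumours makes uncertain in size.

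Rtp4, which encodes a receptor transporter protein with antiviral activity, was 9.67, 10.17, 8.44, 9.97 and 10.21 in the high-score tumours and 8.44, 5.72, 4.20, 5.25 and 4.49 in the low-score ones. Only Hif1a+/+ tumour 1 of the low-score group reached the high-score range. The difference was 4.07 (SE 0.79, limma adjusted p = 0.461), and without that tumour it was 4.78 and passed (adjusted p = 0.0472). With the mean of its probe sets it was 2.22 (adjusted p = 0.448). Slfn1, another Schlafen gene, lay between 3.37 and 7.51 in the high-score tumours and between 1.98 and 2.56 in the low-score ones, where it gave no clear signal. Its difference was 3.36 (SE 0.67, limma adjusted p = 0.461).

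Rsad2 encodes viperin, an enzyme that makes a chain-terminating nucleotide. Its values were 8.87, 10.61, 9.62, 9.72 and 9.12 in the high-score tumours and 8.73, 7.20, 7.49, 7.60 and 8.39 in the low-score ones. The groups met but did not overlap, and the difference was 1.71 (SE 0.40, limma adjusted p = 0.471). The family of IFIT genes encodes proteins that bind foreign RNA ends. Ifit3 was 8.31, 7.93, 7.27, 5.42 and 7.24 against 6.10, 5.46, 3.41, 4.48 and 3.41, with Hif1a+/- tumour 1 the only high-score tumour inside the low-score range, and differed by 2.66 (SE 0.70, adjusted p = 0.472). Ifit1 was between 8.69 and 10.78 in the high-score tumours, but among the low-score ones it was 10.88 in Hif1a+/+ tumour 1 and 3.32 in Hif1a+/+ tumour 3. Its difference of 1.96 (adjusted p = 0.765) was 0.89 without Hif1a+/+ tumour 3.

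Other antiviral genes ranged from clear differences to none. Isg20, which encodes an RNA exonuclease, was 8.36 to 10.35 in the high-score tumours and 6.90 to 8.45 in the low-score ones and differed by 1.77 (SE 0.43, limma adjusted p = 0.471). Trim30a differed by 1.56, Ms4a6b by 1.27 and Ifitm3, which encodes a membrane protein that restricts viral entry, by 1.02. These 4 genes, whose groups overlapped, were named after their values were seen. Bst2, which encodes tetherin, overlapped almost wholly, at 8.96 to 9.88 against 8.34 to 10.13, and its difference was 0.15 (SE 0.40, limma adjusted p = 0.996), turning to -0.51 with genotype as a term. Oas2 was below the low-mode boundary in all 10 tumours, with 4.04 in Hif1a+/- tumour 1 as the highest value. The genes whose groups did not overlap, beside those already described, were Ms4a4c (3.43), Ifi27l2a (3.30) and Lgals3bp (1.19), named after their values were seen. Ifi27l2a was 11.36 to 12.99 in the high-score tumours and 5.23 to 10.98 in the low-score ones.

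**Figure D2:**
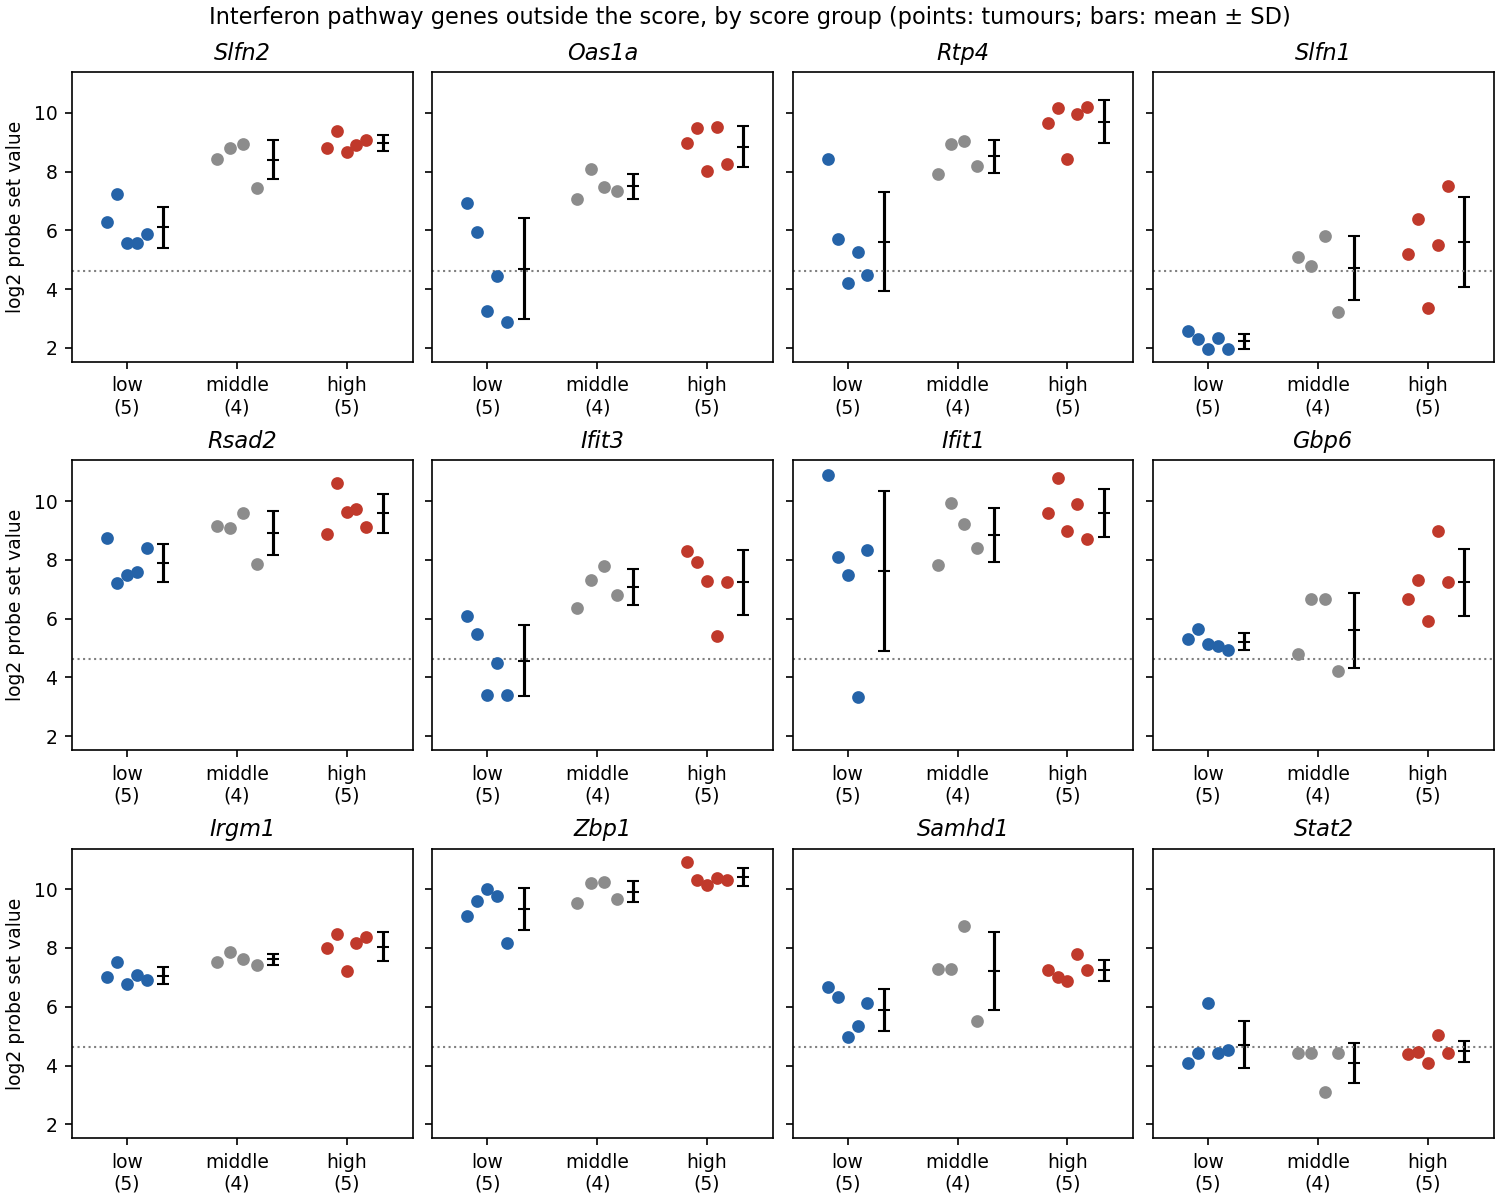
Log2 value of 12 interferon pathway genes outside the score in 14 thymic lymphomas, 1 point per tumour, grouped as low (5), middle (4) and high (5) score, with the mean and SD as bars and the low-mode boundary of 4.63 as a dotted line. Slfn2, Oas1a, Slfn1, Rsad2, Gbp6, Zbp1 and Samhd1 have high-score tumours that all lie above the low-score ones, while Stat2 lies near the boundary in every group.

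The promoters of these genes were searched for the element that STAT2 and IRF9 use. In the 250 bases before each RefSeq transcription start (GRCm38.p6), a core of the interferon-stimulated response element (GAAANNGAAA, either strand) was present in 3.46% of 27025 genes with a promoter in the table and in 3.34% of 8245 measured genes. It was present in 10 of 36 antiviral effector genes (27.8%) and in 6 of 7 interferon-induced GTPase genes (85.7%). Among antiviral genes without overlap 2 of 6 held it (33.3%), and 0 of 3 score genes with a promoter in the table did. Of the higher genes whose groups did not overlap, 3 of 59 held it (5.08%), namely Oas1a, Rsad2 and the ribosomal protein gene Rps7, and of the lower ones 1 of 60 (1.67%), Plk2; Rps7 and Plk2 were named after their values were seen. The gamma-activated site core (TTCNNNGAA, either strand) was in 8.13% of all genes and 7.16% of measured genes. It was in 9 of the 59 higher genes (15.3%) and 3 of the 60 lower ones (5.0%). The antiviral effector genes held it in 5 of 36 cases (13.9%) and the GTPase genes in 3 of 7 (42.9%). Oas1a and Rsad2 are shown as the antiviral genes without overlap that hold the response element core, Slfn2 as the gene nearest to the threshold, and Irf7 as a score gene whose groups did not overlap. Capitals mark the response element core, in Oas1a a run of 2 overlapping cores.
Oas1a, chr5:120907526-120907775, minus strand: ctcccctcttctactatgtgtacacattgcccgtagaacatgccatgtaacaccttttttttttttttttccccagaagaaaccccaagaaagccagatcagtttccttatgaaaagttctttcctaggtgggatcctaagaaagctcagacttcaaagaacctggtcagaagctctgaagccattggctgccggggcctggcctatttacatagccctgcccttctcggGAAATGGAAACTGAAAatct
Rsad2, chr12:26456453-26456702, minus strand: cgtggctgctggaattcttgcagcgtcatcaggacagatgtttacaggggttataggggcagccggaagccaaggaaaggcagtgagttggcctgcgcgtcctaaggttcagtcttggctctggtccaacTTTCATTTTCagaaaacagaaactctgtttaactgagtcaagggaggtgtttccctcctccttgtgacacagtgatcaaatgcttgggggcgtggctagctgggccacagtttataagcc
Slfn2, chr11:83064862-83065111, plus strand: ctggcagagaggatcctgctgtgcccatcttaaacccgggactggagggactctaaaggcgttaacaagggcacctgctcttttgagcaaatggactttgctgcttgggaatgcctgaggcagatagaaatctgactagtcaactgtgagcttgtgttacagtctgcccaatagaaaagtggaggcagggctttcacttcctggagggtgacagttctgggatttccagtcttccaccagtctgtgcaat
Irf7, chr7:141266425-141266674, minus strand: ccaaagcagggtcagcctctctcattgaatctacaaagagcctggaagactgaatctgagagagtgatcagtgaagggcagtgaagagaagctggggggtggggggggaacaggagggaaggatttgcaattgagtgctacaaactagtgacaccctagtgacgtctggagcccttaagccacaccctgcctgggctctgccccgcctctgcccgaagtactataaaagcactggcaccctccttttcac

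In Oas1a the first core begins 20 bases before the start, and in Rsad2 it begins 120 bases before it and is read on the opposite strand. The promoters of Slfn2 and Irf7 hold neither core in these 250 bases, which says only that these letters are not in this window. The stretches of 30 bases around further cores are shown for genes with a difference of about 1 or more, whose groups overlapped.
Ifit3: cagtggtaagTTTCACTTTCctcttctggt
Ifit3, downstream core: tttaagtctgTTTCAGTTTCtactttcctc
Ifit1: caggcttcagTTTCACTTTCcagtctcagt
Ifit1, downstream core: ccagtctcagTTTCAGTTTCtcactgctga
Trim30a: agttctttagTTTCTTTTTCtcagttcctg
Irgm1: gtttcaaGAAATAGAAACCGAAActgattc
Irgm2: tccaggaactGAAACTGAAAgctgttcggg
Gbp2: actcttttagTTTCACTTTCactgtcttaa
These lie at chr19:34583363-34583392 and chr19:34583397-34583426 (Ifit3), chr19:34640775-34640804 and chr19:34640794-34640823 (Ifit1), chr7:104465210-104465239 (Trim30a), chr11:48871428-48871457 (Irgm1), chr11:58214903-58214932 (Irgm2) and chr3:142620594-142620623 (Gbp2). Differences of these genes were 2.66 for Ifit3, 1.96 for Ifit1, 1.56 for Trim30a, 0.99 for Irgm1, 1.46 for Irgm2 and 1.07 for Gbp2. A core did not go with a difference in every gene. The promoters of Bst2, Slfn8 and Gbp7 hold it too, and these genes differed by 0.15, 0.25 and -0.11. Gbp2, Slfn8 and Gbp7 were named after their values were seen.

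The interferon-induced GTPases act on the membranes of vacuoles that hold microbes. Of 9 measured genes 8 were higher, 2 with p under 0.05 before adjustment (3.7% of all genes), and the median difference was 0.99. Gbp6, a guanylate-binding protein gene, was 6.66, 7.33, 5.93, 8.98 and 7.24 in the high-score tumours and 5.31, 5.65, 5.13, 5.05 and 4.93 in the low-score ones. The groups did not overlap, and the difference was 2.01 (SE 0.50, limma adjusted p = 0.471). Irgm1, an immunity-related GTPase gene that regulates the others of its family, was 7.21 to 8.47 against 6.77 to 7.53 and differed by 0.99 (SE 0.25, adjusted p = 0.471). The mean of the 9 genes was 8.43 to 9.56 in the high-score tumours and 7.68 to 8.36 in the low-score ones, so that the list mean, unlike most single members, did not overlap.

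Proteins that attach ISG15, a ubiquitin-like interferon product, were represented by 3 genes, all higher, and ISG15's own gene was not analysed here. Uba7, the activating enzyme, differed by 1.0 (limma adjusted p = 0.613), and Trim25, a ligase that also activates RIG-I, by 0.32, or by 0.54 without Hif1a+/- tumour 5. Ube2l6, the conjugating enzyme, was at about 2.2 in every tumour, below the low-mode boundary.

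Among 13 sensors of nucleic acid and their adaptors 9 were higher, with a median difference of 0.09. In 2 of them every high-score tumour lay above every low-score tumour, against 0.673% of all genes. Samhd1, which degrades the nucleotides that reverse transcription needs, was 7.25, 7.0, 6.89, 7.79 and 7.27 in the high-score tumours and 6.67, 6.32, 4.96, 5.35 and 6.12 in the low-score ones. It differed by 1.36 (SE 0.34, limma adjusted p = 0.471), or by 0.66 with the mean of its probe sets. Zbp1, a sensor of left-handed nucleic acid, was 10.14 to 10.93 against 8.18 to 9.999 and differed by 1.09 (adjusted p = 0.535), or by 0.56 with genotype as a term. Tlr3, a receptor of double-stranded RNA in endosomes, differed by 1.02 (adjusted p = 0.664), and Tbk1, the kinase that activates IRF3, by -0.50 (0.759).

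Genes of the receptors and the JAK-STAT core were split evenly in direction. Of 10 measured genes 5 were higher and 5 lower, 0 of them with p under 0.05 before adjustment in limma in either direction. The median difference was -0.06, or 0.16 without Hif1a+/- tumour 5. Over the settings that left out no tumour the median ran from -0.996 to 0.30. The receptor chain gene Ifnar1 differed by 0.15 (SE 0.62), Ifnar2 by -0.29 (SE 0.44) and Ifngr1, of the interferon-gamma receptor, by 0.78 (SE 0.81). Without Hif1a+/- tumour 5 these were 0.54, -0.14 and 1.37. With genotype as a term Ifnar1 was at -1.01 and Ifngr1 at -1.07. Ifnar2 ran from -1.01 to 0.19 over the settings that left out no tumour. The kinase gene Jak1 differed by 0.42 (SE 0.20, limma adjusted p = 0.677), and Tyk2 by -0.71 (SE 0.58, 0.837). Stat2 was 4.08 to 5.04 in the high-score tumours and, apart from 6.11 in Hif1a+/- tumour 5, 4.07 to 4.53 in the low-score ones, around the low-mode boundary. Its difference of -0.23 was 0.12 without Hif1a+/- tumour 5.

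Of 6 interferon regulatory factors outside the score 2 were higher and 4 lower, with a median of -0.22. Irf1, which interferon-gamma induces and which drives antigen presentation genes, was 11.07, 11.38, 10.57, 10.61 and 11.21 in the high-score tumours and 10.10, 10.32, 10.78, 10.10 and 9.74 in the low-score ones. Hif1a+/- tumour 5 was the only low-score tumour within the high-score range, and the difference was 0.76 (SE 0.23, limma adjusted p = 0.535). Irf3, the factor that acts first after sensing, differed by -0.31, Irf2 by -0.39 and Irf5 by -0.14, with adjusted p between 0.785 and 0.844. Irf7 and Irf9, whose groups lay apart, were chosen for the score and are no members of this list.

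Genes of the interferons themselves were little represented. Ifng was at about 2.08 in all 10 tumours, where there is no clear signal. Ifnz, a type I interferon gene, was 5.86 to 8.96 in the high-score and 5.19 to 6.41 in the low-score tumours, and its difference of 1.15 (SE 0.62) had an adjusted p of 0.739. Of 9 negative regulators of cytokine signalling 3 were higher and 6 lower, with a median of -0.25. The phosphatase gene Ptpn6 was 9.24 to 10.03 against 9.86 to 10.72 and differed by -0.54 (SE 0.20, limma adjusted p = 0.589). Socs3, the feedback inhibitor of cytokine receptors, differed by -1.15 (adjusted p = 0.754), Ptpn11 by -0.25 and Ptpn1 by -0.35.

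Antigen presentation by MHC class I is another output of interferon. Of 15 measured genes 10 were higher, 3 at an unadjusted p under 0.05 (3.7% of all genes), and the median difference was 0.10. The class I heavy chain gene H2-K1 was 12.48, 12.55, 11.77, 11.85 and 12.22 in the high-score tumours and 12.11, 11.41, 11.13, 10.96 and 10.87 in the low-score ones. Only Hif1a+/+ tumour 1, the low-score tumour of highest score, lay within the high-score range. The difference was 0.88 (SE 0.27, limma adjusted p = 0.535), and H2-D1 differed by 0.88 (SE 0.25, 0.535). These are separate genes of similar sequence, and the probe sets may share signal, so they are not counted as separate evidence. The proteasome activator gene Psme1 differed by 0.27 (adjusted p = 0.599) and the immunoproteasome subunit gene Psmb10 by 0.45 (0.654).

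Chemokines and immune regulators that interferon induces had 13 of 16 genes higher, with a median difference of 0.93. Of these 5 were higher at an unadjusted limma p under 0.05, against 3.7% of all genes. Cxcl10, which attracts activated T cells, was 9.62, 9.54, 9.35, 4.79 and 7.60 in the high-score tumours and 6.96, 4.97, 3.17, 3.67 and 2.43 in the low-score ones. The exception was Hif1a+/- tumour 1, which lay within the low-score range, and the difference was 3.94 (SE 1.17, limma adjusted p = 0.535). Cxcl9, another ligand of the same receptor, was 8.18, 6.95 and 6.51 in Hif1a+/- tumour 2, Hif1aKI/+ tumour 4 and Hif1a+/- tumour 3, and 4.32 and 1.99 in Hif1a+/- tumours 4 and 1. In the low-score tumours it was 1.99 to 2.68, below the boundary, and the difference was 3.34 (SE 1.06, adjusted p = 0.535). Ccl5, a chemokine of activated T and NK cells, differed by 3.54 (SE 1.31, adjusted p = 0.585), or by 1.80 with genotype as a term, with Hif1a+/+ tumours 3 and 4 lowest at 3.42 and 3.63. Cd274, which encodes the checkpoint ligand PD-L1, was 7.47 to 8.85 against 5.89 to 7.76 and differed by 1.25 (SE 0.42, adjusted p = 0.539). Hif1a+/- tumour 1 thus had high Oas1a, Gbp6 and Irf9 values with low Cxcl9 and Cxcl10 values, 1 of the 5 high-score tumours with this combination.

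Genes of NF-kB signalling and inflammation, which many stimuli share, had 8 of 12 higher with a median of 0.05. Cd40, a costimulatory receptor gene of antigen-presenting and epithelial cells, differed by 1.97 (SE 0.84, limma adjusted p = 0.624), again with Hif1a+/- tumour 1 lowest of the high-score group at 3.12. Icam1 differed by 0.70 (adjusted p = 0.777).

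**Figure D3:**
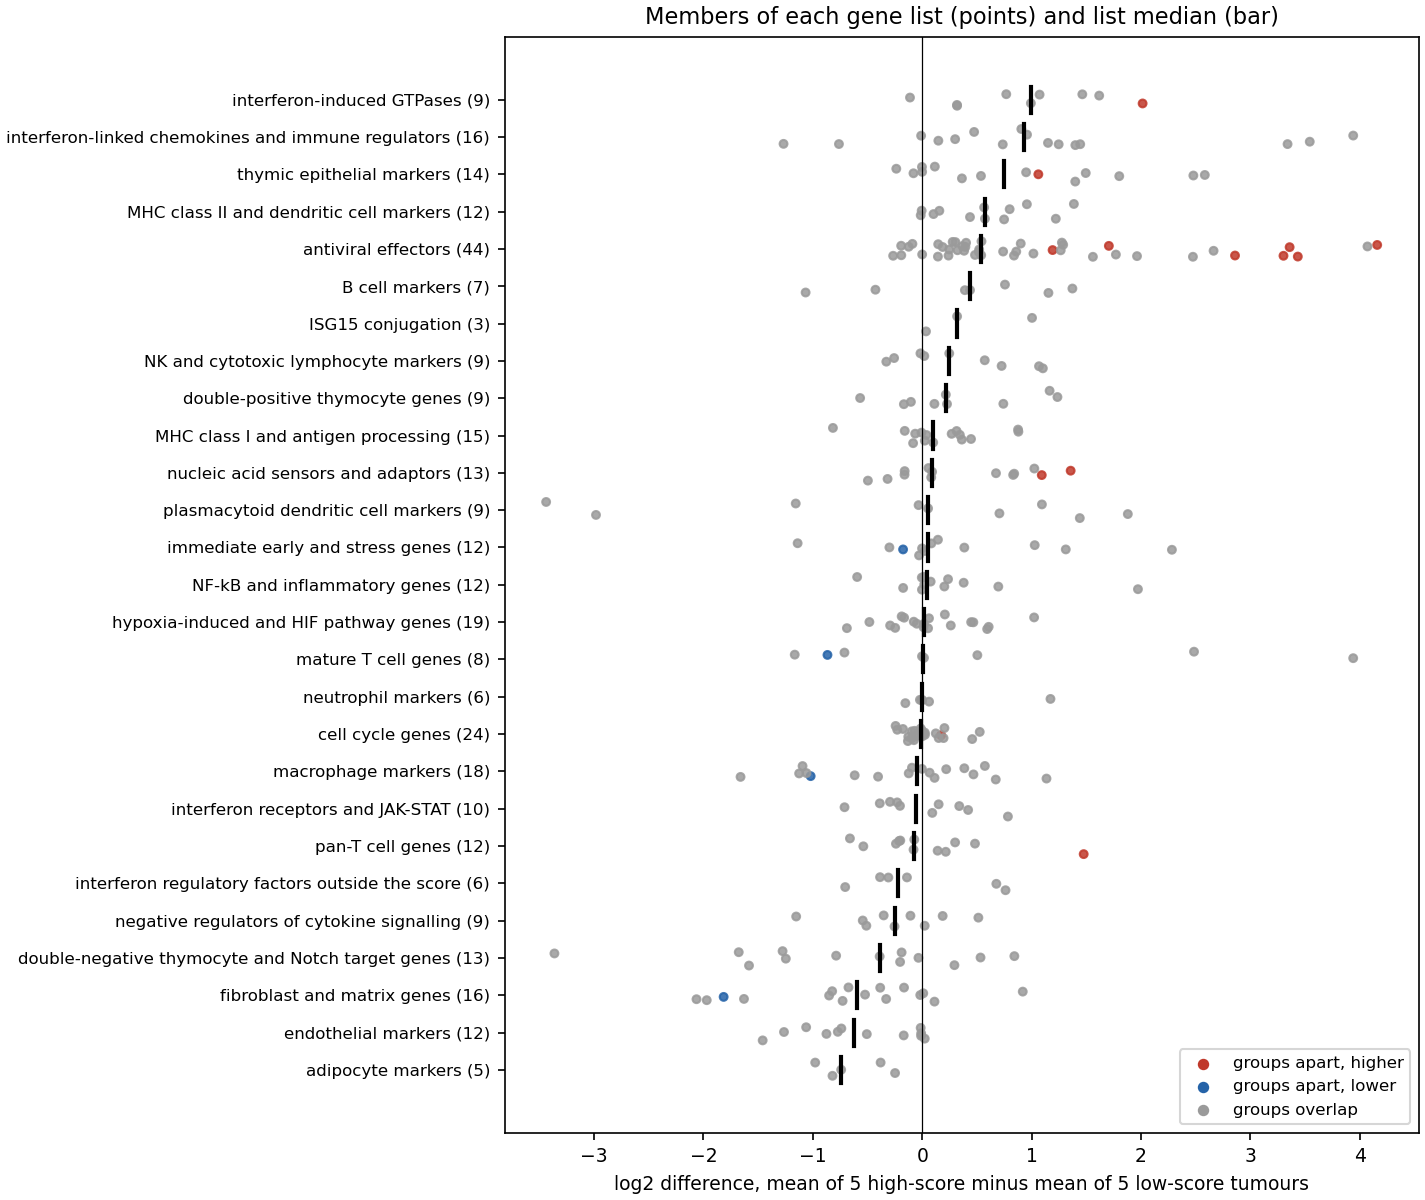
Log2 difference (mean of 5 high-score minus mean of 5 low-score tumours) of every measured member of the gene lists, 1 point per gene, with the number of measured members in brackets and the list median as a bar; red and blue mark genes whose groups did not overlap. Interferon-induced GTPases (median 0.99), chemokines (0.93) and antiviral effectors (0.54) lie to the right, and fibroblast (-0.60), endothelial (-0.62) and adipocyte (-0.74) markers to the left.

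Cell types that could carry the signature were read from their marker genes. Genes of MHC class II and dendritic cells had 10 of 12 higher, with a median of 0.57. Of these 3 were higher at an unadjusted limma p under 0.05, against 3.7% of all genes. The median was 0.098 with genotype as a term and 0.36 without Hif1a+/+ tumour 3. H2-Eb1, a class II chain gene, was 11.83 to 13.08 in the high-score and 9.08 to 12.44 in the low-score tumours and differed by 1.39 (SE 0.59, limma adjusted p = 0.624), or by 0.37 with genotype as a term and 0.86 without Hif1a+/+ tumour 3. H2-Ab1 differed by 0.57 and the cystatin gene Cst3, high in dendritic cells, by 0.75 (adjusted p = 0.618 and 0.578). The list mean was 8.51 to 8.89 in the high-score tumours and 8.73, 8.40, 8.39, 7.80 and 7.22 in the low-score ones. Hif1a+/+ tumours 3 and 4, the lowest in score, were the lowest here too.

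Thymic epithelial markers were low in the same animals. Krt8, a keratin gene of this epithelium, was 8.0 to 11.53 in the high-score tumours and 10.68, 10.87 and 10.25 in the first 3 low-score tumours, but 3.09 and 2.04 in Hif1a+/+ tumours 3 and 4. Krt18 was 3.21 and 3.56 in these, against 7.55 to 10.78 in the high-score tumours. The differences of 2.58 (SE 1.98) for Krt8 and 1.80 (SE 1.70) for Krt18 had limma adjusted p of 0.812 and 0.844, were 1.25 and 0.82 without Hif1a+/+ tumour 4 and 1.51 and 0.73 without Hif1a+/+ tumour 3, and turned to -0.61 and -1.0 with genotype as a term. The chemokine gene Ccl25, which draws progenitors into the thymus, was 8.76, 8.67, 8.09, 8.02 and 8.14 against 8.0, 7.01, 7.78, 6.96 and 6.64. Its groups did not overlap, by 0.02, and it differed by 1.06 (SE 0.29, adjusted p = 0.501). Fezf2 and Aire, regulators of self-antigen expression in medullary epithelium, differed by 2.48 and 1.49 (adjusted p = 0.589 and 0.751). Over 14 markers 10 were higher, the median was 0.74, and the list mean was 4.84 to 6.71 against 3.57 to 5.93.

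The epithelial signal did not follow the score within each group. Fezf2 was at 2.07 to 2.09 in every low-score tumour and 7.89 in Hif1a+/- tumour 3, but it was 2.08 in the high-score Hif1a+/- tumour 1, and in the middle group it was 7.96 and 7.18 in the Hif1aKI/+ tumours. In the low-score tumours with Krt8 above 10, Slfn2 was 6.29, 7.24 and 5.57, below the 8.68 at which the high-score tumours began. Oas1a was 6.92, 5.94 and 3.26 in these, below the 8.02 of the lowest high-score tumour. For both genes the groups did not overlap, so every low-score tumour lies below whatever its Krt8 value. These values therefore say nothing about the part of epithelial cells. The part of epithelial, dendritic or other cells in the differences of the interferon genes was not tested.

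Plasmacytoid dendritic cells, the strongest producers of type I interferon, had markers that differed in both directions, with 5 of 9 higher and a median of 0.05, or -0.17 without Hif1a+/- tumour 5. Ly6d, a gene that lymphoid progenitors also express, was 6.04 to 11.20 in the high-score and 11.10 to 13.73 in the low-score tumours and differed by -2.98 (SE 0.95, limma adjusted p = 0.535). Tcf4, a transcription factor gene of these cells and of others, differed by -1.16 (adjusted p = 0.535) and Klk1 by 1.44 (0.618). The list mean was 6.26 to 7.73 against 6.48 to 8.0. Siglech, a defining marker of these cells, was not analysed here.

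Macrophage markers had 8 of 18 higher and a median of -0.05. Stab1, a scavenger receptor gene of macrophages and sinusoidal endothelium, was 7.53, 7.80, 7.62, 7.61 and 7.82 in the high-score tumours and 9.22, 8.24, 8.09, 8.70 and 9.24 in the low-score ones. The groups did not overlap, and the difference was -1.02 (SE 0.24, limma adjusted p = 0.471), or -0.44 with genotype as a term. Other macrophage genes went both ways, with the complement gene C1qa at 1.14, Cd68 at 0.57 and the mannose receptor gene Mrc1 at -1.09, all overlapping. The list mean was 7.51 to 8.05 in the high-score and 7.30 to 8.44 in the low-score tumours. Of 6 neutrophil markers 2 were higher, and 4 had both means below the low-mode boundary.

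Fibroblast and matrix genes were lower in 13 of 16 cases, 3 of them at an unadjusted p under 0.05, with a median of -0.60. Of all genes 55.2% were lower, and 4.04% were lower at that p. Fn1, which encodes fibronectin, was 8.82, 8.37, 7.02, 9.22 and 8.48 in the high-score tumours and 11.20, 9.79, 9.74, 9.77 and 10.48 in the low-score ones. The groups did not overlap, and the difference was -1.82 (SE 0.45, limma adjusted p = 0.471), or -1.38 with genotype as a term. The collagen gene Col5a1 differed by -1.97 (adjusted p = 0.535), the receptor gene Pdgfrb of fibroblasts and pericytes by -2.06 (0.614) and Col1a1 by -0.82 (0.652). The list mean was 7.92 to 8.84 against 8.19 to 9.93, and 9.09 to 10.23 in the middle group, above every high-score tumour. The middle and low-score ranges overlapped, and the highest list mean, 10.23, was that of a middle tumour.

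Endothelial markers had 11 of 12 lower, 4 at an unadjusted p under 0.05 (4.04% of all genes), with a median of -0.62. In 7 of the 12, among them the endothelial receptor gene Eng (-0.88), the cadherin gene Cdh5 (-0.51) and Emcn (-0.77), both means lay below the low-mode boundary. Tek, the angiopoietin receptor gene, was 4.20 to 5.99 against 4.95 to 6.80 and differed by -1.06 (limma adjusted p = 0.612). The list mean was 3.39 to 4.09 against 3.97 to 4.93. All 5 adipocyte markers were lower, with a median of -0.74 and Pparg at -0.74 (adjusted p = 0.730). The groups overlapped in every endothelial and adipocyte marker.

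**Figure D4:**
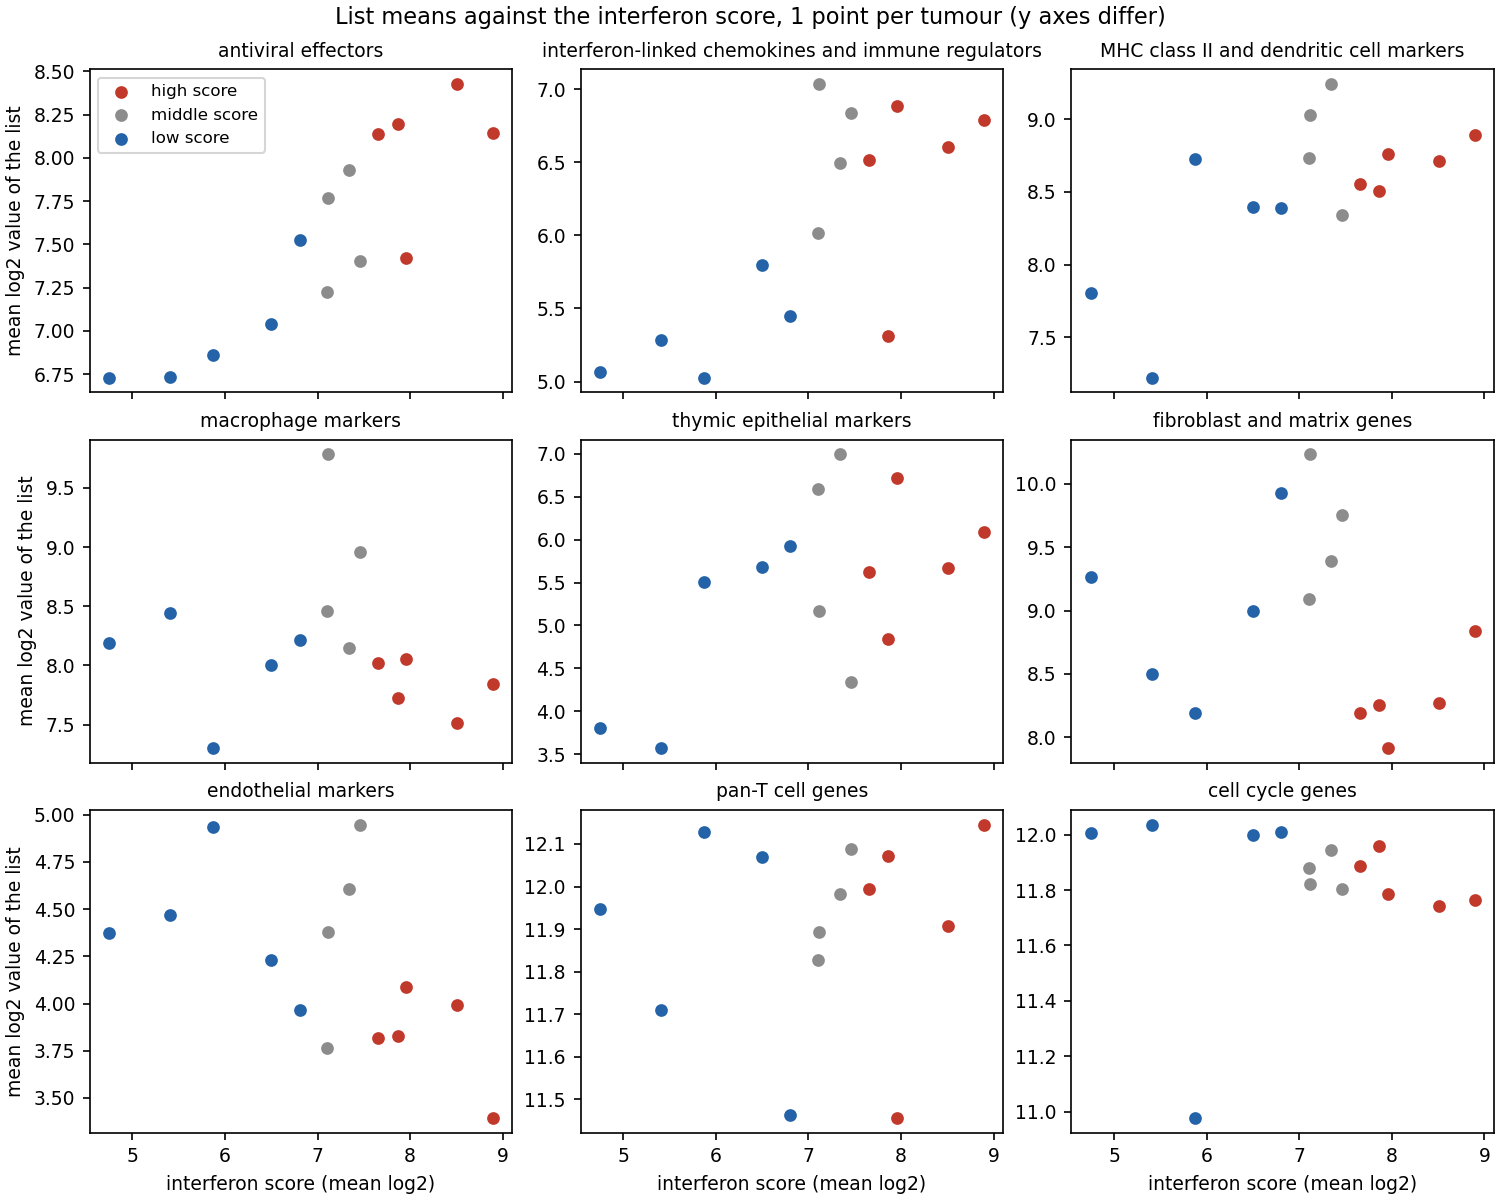
Mean log2 value of the measured genes of 9 lists (y axes, which differ between panels) against the interferon score (x axis) in 14 thymic lymphomas, 1 point per tumour, coloured by score group. Antiviral effectors run from 6.73 to 8.43; the highest fibroblast mean, 10.23, is in a middle tumour, and 1 low-score tumour has a cell cycle mean of 10.98.

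Markers of other lymphocytes were mostly, but not all, below the low-mode boundary. Of 7 B cell markers 5 were higher with a median of 0.44, and 4 had both means below the low-mode boundary. Ebf1, the early B cell factor gene, was lower at -1.07 (limma adjusted p = 0.632). Cd22, a B cell receptor regulator, was 6.98 to 8.13 in the high-score and 5.75 to 8.24 in the low-score tumours. Of 9 markers of NK and cytotoxic lymphocytes 6 were higher with a median of 0.25, and 6 had both means below the boundary. The granzyme gene Gzma had high values throughout, at 13.70 to 14.13 against 11.14 to 13.83 (1.10, limma adjusted p = 0.663), and the perforin gene Prf1 was 6.42 to 7.75 against 6.16 to 7.46. Cd22 and Prf1 were named after their values were seen.

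The T cell genes of the tumours were compared next. Of 12 pan-T cell genes 5 were higher and 7 lower, with a median of -0.08. Cd28, the costimulatory receptor gene, was 11.91, 12.32, 11.31, 11.01 and 12.19 in the high-score tumours and 8.72, 10.88, 10.92, 10.43 and 10.40 in the low-score ones. Its groups did not overlap and it differed by 1.48 (SE 0.46, limma adjusted p = 0.535), or by 0.97 with genotype as a term. Cd3g, a chain of the T cell receptor complex, differed by 0.48 (adjusted p = 0.599) and Cd3d by 0.30 (0.671).

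Genes of the double-negative thymocyte stage and Notch targets had 10 of 13 lower, 0 of them at an unadjusted p under 0.05 in limma, with a median of -0.39. Il2ra, the interleukin-2 receptor gene of that stage, was 2.12, 2.13, 3.00, 6.29 and 3.24 in the high-score tumours and 6.90, 3.22, 2.13, 11.42 and 9.93 in the low-score ones. The tumours with a clear Il2ra signal were thus mostly low-score, but the groups overlapped widely, and the difference of -3.36 (SE 1.89, adjusted p = 0.754) was 0.52 with genotype as a term. Notch3 differed by -1.28 and Myc, a Notch target in T cells, by 0.84, with limma adjusted p of 0.806 and 0.789. Notch3 was at -0.50 without Hif1a+/- tumour 2 and at -0.12 with genotype as a term, and Myc at 0.41 without Hif1a+/- tumour 5 and at 1.64 with genotype as a term. Of 9 genes of the double-positive stage 6 were higher with a median of 0.22. Dntt, the terminal transferase gene, was 13.58 to 14.07 in the high-score tumours and 10.28 to 13.58 in the low-score ones, and its difference of 1.24 (adjusted p = 0.680) includes 10.28 in Hif1a+/+ tumour 4. Without that tumour it was 0.64, and with genotype as a term 0.52. Cd8b1 differed by 0.74 (adjusted p = 0.738). Of 8 mature T cell genes 4 were higher. Ctla4, the inhibitory receptor gene, was 2.44 to 11.38 in the high-score and 1.96 to 3.04 in the low-score tumours (3.94, SE 1.62, adjusted p = 0.612).

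Proliferation, hypoxia and stress genes were compared last. Of 24 cell cycle genes 10 were higher and 14 lower with a median of -0.01, which the low values of Hif1a+/- tumour 5 entered. Without that tumour the median was -0.20. The list means of the other 4 low-score tumours, 12.0 to 12.04, then lay above those of all 5 high-score tumours, 11.74 to 11.96. As Hif1a+/- tumour 5 was singled out by its mean of these same genes, this separation is no independent result. With genotype as a term the median was 0.35. In that fit Hif1a+/- tumour 5 was the only low-score Hif1a+/- tumour, so the value is not independent of that tumour. Birc5, the survivin gene, was 13.71 to 13.77 against 13.31 to 13.67 and differed by 0.17 (SE 0.07, limma adjusted p = 0.599), without overlap, or by 0.11 without Hif1a+/- tumour 5. Of 19 genes of the HIF pathway and of hypoxia 11 were higher with a median of 0.02. The glucose transporter gene Slc2a1 differed by 0.45 (SE 0.14, adjusted p = 0.535) and Vegfa by 0.59 (0.614), both targets of HIF. Hif1a itself was 11.94 to 12.82 in the high-score and 11.75 to 12.68 in the low-score tumours, a difference of 0.02 (SE 0.21, adjusted p = 0.996). Its direction changed with genotype as a term (-0.032), with the score as a number (-0.079), with the mean of its probe sets (-0.053) and in 4 of 10 fits without 1 tumour. Of 12 immediate early and stress genes 7 were higher with a median of 0.05, and Fos, an early response gene, differed by -1.14 (SE 0.40, adjusted p = 0.571). Markers of sex varied within the groups. Xist, the RNA of the inactive X chromosome, was 12.68 in the high-score Hif1a+/- tumour 1 and 12.57 in the low-score Hif1a+/+ tumour 3. It was at most 3.85 in the other 8 tumours, so that each group held 1 animal with a high Xist value. Eif2s3y, a Y-linked gene, was 2.13 and 2.16 in these animals and 11.40 to 12.35 in most others. It was 7.81 in Hif1a+/- tumour 3 and 7.46 in Hif1a+/+ tumour 4, which leaves the sex of these animals unclear.

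A fit of all genes on the score as a number used all 14 tumours, the middle ones included, and called more genes. It takes its values from the same score and so is another description of the same order of tumours. In it 17 genes were higher and 10 lower with rising score at a limma adjusted p under 0.05. Interferon genes among them were Oas1a (adjusted p = 0.00166), Rtp4, Slfn2, H2-K1, H2-D1 and Ifit3 (each 0.0302) and Ifi27l2a (0.0403), and Mllt3 (0.00166) led the others. For a rise equal to the distance between the groups' mean scores, the difference was 3.997 for Oas1a, 3.74 for Rtp4, 2.48 for Slfn2, 0.97 for H2-K1 and 1.56 for Mllt3. Of the listed markers, 8 of 18 macrophage and 2 of 6 neutrophil genes were higher in the 5 against 5 comparison. Myeloid genes called in the fit on the score, named after their values were seen, were Aif1 (2.37, adjusted p = 0.0302), Lst1 (1.82, 0.0403) and Ncf4 (2.13, 0.0403). Of the lower genes Opa1 (-0.98, adjusted p = 0.0302) and Evpl (-2.0, 0.0476) stood also among the leading genes of the 5 against 5 comparison. Cs (-0.26, 0.0403) and Got2 (-0.43, 0.0476), likewise named after their values were seen, encode mitochondrial enzymes. With genotype as a term in the 5 against 5 fit, 0 genes were called higher and 3 lower, Arhgap20, Aldh4a1 and Pgls (each adjusted p = 0.0487, named after their values were seen), and at an unadjusted p under 0.05 there were 633. No interferon gene was among the called.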

How the data were processed

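Total RNA of 14 thymic lymphomas was hybridised to 1 expression array each. The values, on the log2 scale as deposited, summarise probe sets and were made by the authors with GCRMA, and Partek is also named, without versions, per the submitters' processing notes. GCRMA subtracts background by probe sequence, normalizes across arrays and summarises each probe set, which forms a low mode where there is no clear signal. The genome build was not given in the sources used here. Precision is limited by the number of arrays.

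Of 18264 probe sets 16602 named 1 gene, 603 several and 1059 none. The probe set of highest mean among those naming 1 gene stood for a gene, which gave 10254 genes. Tumours were scored and grouped as the report describes, and limma 3.58.1 in R 4.3.3 (lmFit, eBayes) compared 5 high-score with 5 low-score tumours on the log2 scale over 10249 genes outside the score, two-sided, with a Benjamini-Hochberg adjusted p of 0.05 as the threshold. Errors of differences are standard errors (SE), those of means are standard deviations (SD). Groups do not overlap where every tumour of one lies beyond every tumour of the other. No level filter was applied in this fit. The procedure was tested on simulated data.

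The score genes, gene lists, named genes and tests were chosen with earlier results of these data known. The genes named are those of the score, 5 leading genes per direction, a set list of interferon, keratin and sex-linked genes and up to 4 members of smallest p in each list; any other gene was named after its values were seen. Promoters are from RefSeq, GRCm38.p6. Alternatives were the score as a number, the middle tumours as a group, genotype as a term and the replicate number as a block. Others were a filter on low values, centring, quantile normalization, trend and robust moderation, array weights and probe set choices. The last were a limit of 1 on the size of the log2 difference beside the adjusted p, and leaving out each tumour.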

Additional observations from a re-analysis of the deposited data

Results flagged for a closer look

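In 107 genes or scores the value of each group's highest and lowest tumour was set against the other 4 with Dixon's criterion, and 16 of 214 groups held a tumour that stood apart, where chance gives about 1 in 20. In the high-score group Hif1a+/- tumour 1 stood apart for Cd40 (3.12, others 6.06 to 6.83), H2-Aa (11.75, others 12.40 to 12.48), Oas2 (4.04, others 2.04 to 2.45), Pdgfrb (10.06, others 5.23 to 6.44) and Il2ra (6.29, others 2.12 to 3.24). It was the high-score tumour with the high Xist value and with Cxcl9 at 1.99. Hif1a+/- tumour 3 stood apart for Usp18 at 8.66, where the others lay between 10.47 and 11.16.

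In the low-score group Hif1a+/- tumour 5, the tumour of low cell cycle signal, stood apart for Stat2 (6.11, others 4.07 to 4.53), Trim25 (12.89, others 11.60 to 11.88), Birc5 (13.31, others 13.59 to 13.67) and Cdc6 (10.32, others 11.44 to 11.68). Hif1a+/+ tumour 1, the low-score tumour of highest score, stood apart for H2-D1 (12.29, others 11.06 to 11.41), Aire (5.04, others 2.04 to 2.18), Cd28 (8.72, others 10.40 to 10.92) and Cd3d (13.34, others 13.84 to 14.04). Hif1aKI/+ tumour 5 had the lowest Hif1a value (11.75, others 12.44 to 12.68), and Hif1a+/+ tumour 4 the lowest Dntt value (10.28, others 12.82 to 13.58). Why these tumours differ was not tested.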

How the results depend on the processing

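As the main fit called 0 genes, adding a limit of 1 on the size of the log2 difference could call none. The count of called genes was also 0 in each direction with centring, quantile normalization, trend and robust moderation and array weights. It was 0 too with probe sets averaged per gene or tested singly and with the replicate number as a block. It was 1 higher and 1 lower with the middle tumours as a group, 17 and 10 with the score as a number, 0 and 3 with genotype as a term and 1 and 0 with the filter on low values, which tested fewer genes. Leaving out 1 tumour gave 0 to 5 higher genes (5 without Hif1a+/- tumour 1) and 0 to 2 lower ones (2 without Hif1a+/- tumour 5). Groups that did not overlap numbered 83 to 192 higher and 89 to 187 lower in these fits, as fewer tumours are compared. At 69 and 71 in the full comparison, they numbered 57 to 72 and 51 to 71 in the other settings.

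Of the 101 named genes outside the score, the difference became over 1.5 times smaller or turned sign in 38 with genotype as a term. It did so in 16 with the replicate block, 15 with the score as a number and 13 with the mean of probe sets. Without 1 tumour it did so in 1 to 11. The difference became over 1.5 times larger in 16 with genotype as a term and 13 with the replicate block. With the score as a number it did so in 3, with the mean of probe sets in 1 and without 1 tumour in 1 to 5. Differences that turned sign were all of genes far from the threshold. With genotype as a term they were Ifnar1 -1.01, Bst2 -0.51, Hif1a -0.032, Krt8 -0.61, Krt18 -1.0, Ifngr1 -1.07, Irf5 0.070, Ifng 0.00059 and Il2ra 0.52. With the replicate block they were Stat2 0.15, Ifnar2 0.19, Hif1a -0.036 and Ube2l6 -0.0011. With the score as a number they were Ifnar1 -0.052 and Hif1a -0.079, with the mean of probe sets Hif1a -0.053 and with quantile normalization Ifng 5.4e-05. Without 1 tumour, Stat2 ran from -0.39 to 0.12, Ifnar1 from -0.24 to 0.54, Bst2 from -0.075 to 0.37, Hif1a from -0.14 to 0.13 and Ifng from -0.0029 to 0.00041. The cause was not tested. Deviations from genotype means of same-numbered tumours in different genotypes correlated at -0.006 on average over 13 pairs, from -0.11 to 0.14. Over 52 pairs of different number the average was 0.0015. The numbers gave no sign of pairing, but such correlations cannot exclude that animals or arrays were paired. Small groups, overlapping genotypes and values near background limit what these differences show.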

Other observations

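Of the 69 higher genes whose groups did not overlap, 13 belonged to the gene lists and 56 to none; of the 71 lower ones, 4 did and 67 did not. Genes of no list with a difference of at least 1 numbered 25 and 30, and those that follow were named after their values were seen. Among the higher ones Clstn1, which encodes calsyntenin, was at 12.18 against 9.47, and Plbd1, a phospholipase B domain gene, at 9.73 against 8.24. Cfp, the properdin gene of the complement system, was at 9.61 against 8.39. Il18r1, an interleukin-18 receptor gene, was at 4.21 against 2.53, both below the low-mode boundary. Il18r1 passed without Hif1a+/- tumour 4 (2.06, limma adjusted p = 0.00804). Among the lower ones the scavenger receptor gene Cd36 was at 8.38 against 9.98, the tetraspanin gene Tspan9 at 7.62 against 11.01 and the Src family kinase gene Fgr at 7.78 against 8.84.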
